A study of Mus musculus with 8 samples.

Results

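Alternative exon ends are exons of a gene that share one boundary and differ at the other, so that a mature transcript carries either a longer or a shorter form of the same exon. They were listed as exon coordinates, each with an FPKM (fragments normalised to transcript length and library size), in 8 bulk RNA-seq samples of mouse small intestinal organoids. The FPKM is read here as that of the transcripts that carry the exon, which the sources used here do not state. Exons of a gene were grouped by their shared boundary, a group was kept where 2 or more of its exons were each listed in at least 6 of the 8 samples and where their summed FPKM averaged at least 5, and an exon not listed in a sample counted as 0. This left 1838 sets with 3736 exons in 1449 genes, out of 12905 exons of this type listed in any sample. Of the sets, 1172 varied at the acceptor side (the 3′ splice site, where the exon starts) and 666 at the donor side (the 5′ splice site, where it ends). A total of 1702 sets held 2 forms, 128 held 3 and 8 held 4, and 295 genes had more than 1 set. The members were chosen by their level and by how many samples listed each form. The readout is the share of the summed FPKM that the longest form took. A form missing from a whole genotype was left out by this, and with it any set of 2 forms that held it. Where it sufficed that 6 samples listed any form of the set, there were 3123 sets, 7 of which passed the share test described below. At the limit, the sets of Cask, Dop1b and Abhd14a stood just inside with 5.03, 5.03 and 5.04 FPKM, and sets of Adar, Nfib and Tarbp2 just outside with 4.99, 4.98 and 4.96 FPKM.

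The organoids were grown from small intestinal crypts in Matrigel with IntestiCult OGM medium, 4 samples from wild type mice (WT) and 4 from MG53-TG mice, which overexpress MG53, a tripartite-motif protein encoded by Trim72, in the whole body. Strain, age and the promoter of the transgene are not given in the sources used here, and the study describes the organoid transcriptome under both the names MG53-TG and WT and the names MG53;Lgr5 and Lgr5, an Lgr5 reporter cross. Nothing says that the samples of a group came from separate animals or cultures, so p-values measure the spread between these samples, which may be technical. Trim72 was listed at 0 in all 4 WT samples and at 16.4, 27.4, 31.9 and 36.5 FPKM in the MG53-TG samples. All 7 epithelial markers (Epcam, Cdh1, Krt8, Krt18, Krt19, Vil1, Cdx2) were above 0.5 FPKM and summed to 2023 to 2345 FPKM in WT and 1671 to 2168 FPKM in MG53-TG. The 7 mesenchymal markers summed to 1.8 to 3.24 FPKM in WT and 1.31 to 5.1 FPKM in MG53-TG, Col1a1, Col1a2 and Col3a1 being at 0 in every WT sample and in MG53-TG sample 1. The 5 immune markers summed to at most 0.0913 FPKM, the 3 endothelial markers had no entry, and among 4 neuronal and glial markers only S100b exceeded 1 FPKM, at 0 to 0.401 FPKM in WT and 4.45 to 8.19 FPKM in MG53-TG. The part of these transcripts in the shares was not tested.

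During splicing, the spliceosome pairs a donor site, read first by U1 snRNP and then by U6, with an acceptor site, read by the U2AF dimer and U2 snRNP. Where candidate sites lie near each other, SR proteins and hnRNPs bias which one is used, and the exon gains or loses the bases between them. A gain that is a multiple of the codon length inserts or removes amino acids, while any other length shifts the reading frame and commonly exposes the transcript to nonsense-mediated decay. Acceptors a codon apart, called NAGNAG acceptors, are a well-known class of such sites.

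The sequences of some acceptor sets with a difference of 3 bases and of some sets without overlap are printed here from GENCODE vM21 transcripts (GRCm38, the build named mm10 in the submitters' processing notes), 5′ to 3′ in the sense of the gene. Capitals mark the bases between the ends of the longest and the shortest form, and lower case 9 exon bases shared by all forms. In the Tsen34 and Srsf7 sets, which have 3 forms, the middle form also carries part of the capitals. First come 5 coding sets with acceptors 3 bases apart, shown because the capitals are the whole difference between the forms.
Arnt, chr3:95493698-95493709, plus strand: CAGgtgcccacc
Foxm1, chr6:128372531-128372542, plus strand: CAGcagcagaaa
Hgs, chr11:120479087-120479098, plus strand: CAGtaccagaat
Usp19, chr9:108493561-108493572, plus strand: AAGaaacctctg
Cnot1, chr8:95755100-95755111, minus strand: TAGgtggtcttg

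The following are 6 of the acceptor sets without overlap described below, and the capitals precede the shared exon bases because the longest form starts upstream.
Tsen34, chr7:3695352-3695393, plus strand: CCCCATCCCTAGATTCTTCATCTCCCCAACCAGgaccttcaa
Fdps, chr3:89094521-89094577, minus strand: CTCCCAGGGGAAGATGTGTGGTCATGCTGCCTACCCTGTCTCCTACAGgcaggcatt
Surf1, chr2:26913650-26913690, minus strand: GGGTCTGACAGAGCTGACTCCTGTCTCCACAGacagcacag
Sorbs2, chr8:45823729-45823767, plus strand: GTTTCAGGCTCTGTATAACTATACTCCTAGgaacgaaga
Khdc4, chr3:88709830-88709866, plus strand: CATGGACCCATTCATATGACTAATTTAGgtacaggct
Dgat1, chr15:76504535-76504571, minus strand: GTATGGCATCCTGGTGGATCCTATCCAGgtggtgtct

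In the donor sets the capitals follow the shared bases, and they open with the donor dinucleotide of the shortest form.
Sh2b1, chr7:126468420-126468481, minus strand: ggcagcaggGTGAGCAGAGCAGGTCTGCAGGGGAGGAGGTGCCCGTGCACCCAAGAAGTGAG
Ppp4r3a, chr12:101053429-101053476, minus strand: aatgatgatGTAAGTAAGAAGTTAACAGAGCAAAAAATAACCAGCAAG
Srsf7, chr17:80204122-80204163, minus strand: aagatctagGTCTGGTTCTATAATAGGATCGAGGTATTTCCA
Hnf4a, chr2:163569001-163569039, plus strand: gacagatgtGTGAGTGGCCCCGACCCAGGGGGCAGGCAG

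All forms of 1743 sets (94.8%) were exons of GENCODE vM21, and in 1727 sets (94%) all were internal exons of some transcript. The segment between the longest and shortest form could be read for 1783 sets. On the acceptor side its last bases were AG, the dinucleotide at which the shorter form's intron ends, in 1144 of 1145 sets, the other being Atxn2 with GG. On the donor side its first bases were GT in 620 of 638 sets, GC in 17 and GA in 1, in 0610010K14Rik. Over all positions of these segments, read on the sense strand only, AG stood at 7.29% of dinucleotides on the acceptor side, and GT at 6.12% and GC at 5.72% on the donor side. Where the shorter form's donor was GC, the longest form had a median WT share of 65.5% over the 17 sets, against 25.4% over the 620 sets with GT.

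The segment lay in coding sequence in 1300 sets (70.7%), in a 5′ UTR in 137, in a 3′ UTR in 21 and in transcripts with no coding sequence in 325, and the longest form of 55 sets was not annotated. Lengths that are multiples of 3 were more frequent where the segment was coding. They made up 50.9% of 841 coding acceptor sets and 49.9% of 459 coding donor sets, against 29.1% of 175 acceptor and 26.7% of 150 donor sets in noncoding transcripts. Acceptor sets had a median length difference of 55 bases and donor sets of 75.5 bases. Differences of exactly 3 bases occurred in 21 acceptor sets and no donor set, and differences of 7 to 9 bases in 0 acceptor sets. The most frequent difference was 18 bases for coding acceptor sets, with 35 sets, and 15 bases for coding donor sets, with 16 sets.

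**Figure D1:**
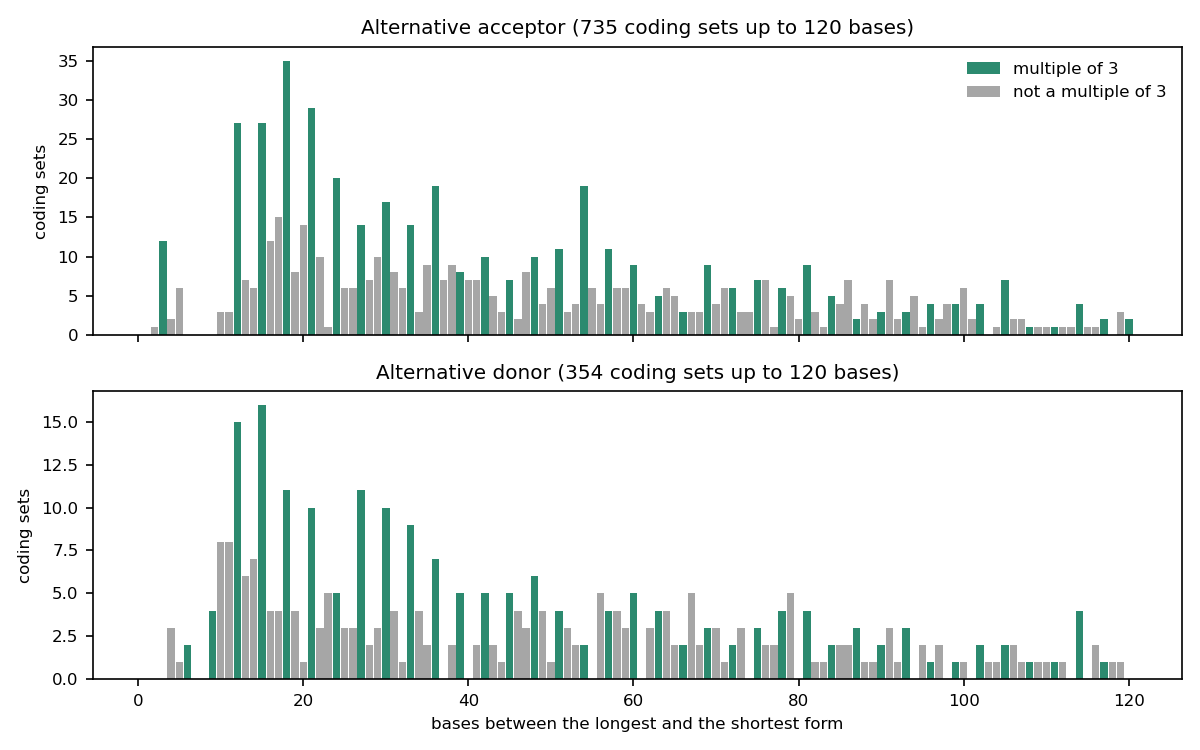
Number of coding sets (vertical axis) by the bases between the longest and the shortest form (horizontal axis, up to 120 bases), for 735 acceptor sets above and 354 donor sets below. Green bars, lengths that are multiples of 3, hold 386 of the acceptor and 181 of the donor sets and stand above their grey neighbours at most short lengths.

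How much the less used end contributed also differed between the frame classes of coding sets. In coding sequence the share of the minor end had a median of 7.13% in WT and 7.38% in MG53-TG over the 657 sets whose length difference was a multiple of 3. Over the 643 sets with any other length the medians were 2.41% and 2.77%. Minor ends with a mean share of at least 10% made up 46.3% of the former sets and 27.5% of the latter. Outside coding sequence the order varied. In 5′ UTRs the medians over 45 multiples of 3 were 5.52% in WT and 8.04% in MG53-TG, below the 6.59% and 9.04% over 92 others. In noncoding transcripts they were 1.27% and 1.84% over 91 multiples of 3, and 2.38% and 4.12% over 234 others. In 3′ UTRs the genotypes differed in the order, with 7.12% in WT and 5.25% in MG53-TG over 8 multiples of 3, and 1.64% and 12.4% over 13 others. Where the longest form was not annotated, the medians were 16.2% and 23.7% over 20 multiples of 3, and 14% and 17.2% over 35 others. The sets of both coding classes had like summed levels, with medians of 13.4 and 12.5 FPKM. These are descriptions over sets, which share genes and transcripts and are not replicates.

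**Figure D2:**
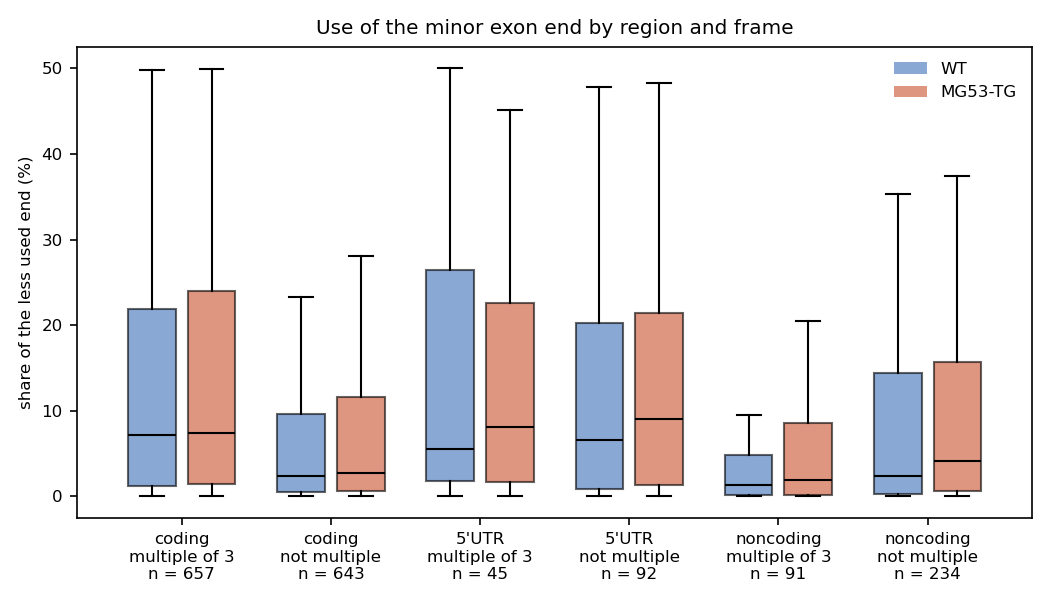
Share of the less used exon end in percent (vertical axis) by the annotated region and by whether the length difference is a multiple of 3, blue for WT group means and red for MG53-TG group means. Boxes give the quartiles, the line in each box the median and whiskers reach 1.5 times the interquartile range, with points beyond them not drawn; in coding sequence the boxes of the multiples of 3 reach higher in both genotypes.

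Length and side also went with how often the longest form was used. For acceptor differences of 31 to 100 bases the longest form was the main one, with a median share of 89.8% in WT and 86% in MG53-TG over 499 sets. For differences above 300 bases it was the minor form, with medians of 4.23% and 7.1% over 112 acceptor sets and of 11% and 13.7% over 116 donor sets. Acceptors exactly 3 bases apart were used in widely differing proportions. In such sets the AG of the 3 extra bases ends the intron of the shorter form, and the bases before the longest form were not read. Among the 19 such sets with 2 forms and a readable sequence, 15 had CAG as extra bases. Their longest-form shares ran from 6.96% to 83.1% in WT, with a median of 25.9%. The 3 with TAG, of which 2 are Cnot1 exons with the same acceptors and different ends, had a median of 63.8%. The single set with AAG, in Usp19, stood at 71.6%. Arnt, the dimer partner of the aryl hydrocarbon receptor, kept the 3 extra bases in 83.1% ± 4.86 (SD, n = 4) in WT and in 92.8% ± 8.13 in MG53-TG. Foxm1, a transcription factor of proliferating cells, kept them in 6.96% ± 2.02 in WT and 9.59% ± 15.9 in MG53-TG. For Hgs, an endosomal sorting protein, the shares were 25.9% ± 10.8 and 23.3% ± 17.4, and for Usp19, a deubiquitinase, 71.6% ± 5.62 and 74.1% ± 11.4. In 0 of these 19 sets were the genotypes without overlap, against 8.9% of all share features compared below. So few sets cannot tell these apart.

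The comparison of the genotypes asked whether MG53 overexpression went with a shift between the longer and the shorter exon ends. No such shift passed the test: with limma on the arcsine of the square root of the share and Benjamini-Hochberg adjustment over 6782 share features of the files (these sets, skipped exons and retained introns), 0 of 1838 sets had an adjusted p of at most 0.05, where 0.192% of all features did. The 13 features that passed were 10 skipped exons and 3 retained introns. At an unadjusted p of at most 0.05, limma gave 169 sets, 93 with a higher and 76 with a lower longest-form share in MG53-TG, or 9.19% of the sets against 9.63% of all features. The 4 WT and 4 MG53-TG values did not overlap in 144 of 1836 sets with values in all samples (7.84%), against 8.9% of all features and 9.29% of the features of other types. Of these sets 74 were higher and 70 lower in MG53-TG, where 5.02% of all features had no overlap and were higher and 3.88% had none and were lower. For a set without overlap, the two-sided exact permutation test over the 70 relabellings gives its smallest possible p, 0.0286. The difference between the genotypes had a median of 0.0027 points and a median size of 2.13 points, below the median SD between replicates of 2.66 points in WT and 3.41 points in MG53-TG. It exceeded 20 points in 97 sets. Acceptor and donor sets had close shares without overlap, 7.77% and 7.97%, with 41 higher and 50 lower on the acceptor side and 33 higher and 20 lower on the donor side.

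**Figure D3:**
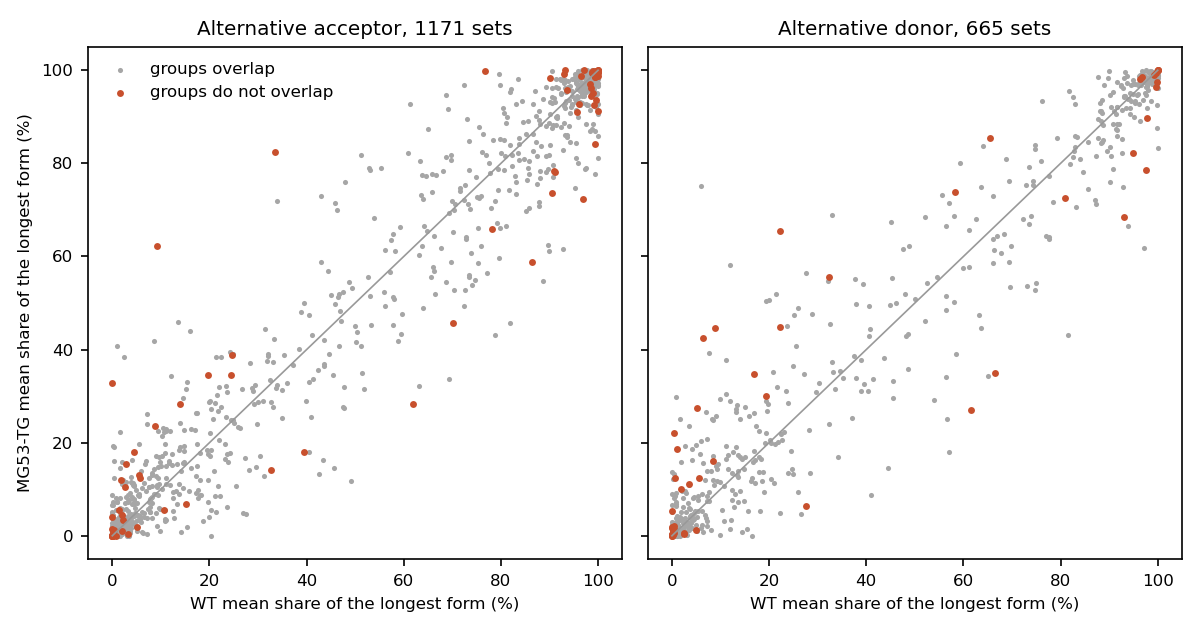
Mean share of the longest form in percent, WT on the horizontal and MG53-TG on the vertical axis, for 1171 acceptor sets on the left and 665 donor sets on the right, with the line of equal shares. Red points are the sets whose 4 WT and 4 MG53-TG values do not overlap; they lie on both sides of the line, 41 above and 50 below it for acceptors and 33 above and 20 below it for donors.

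The lowest adjusted p was shared by Tsen34 and Sh2b1, which are named here, like the other sets of this and the next 2 paragraphs, after their values were seen. Tsen34 encodes a subunit of the tRNA splicing endonuclease, and its exon had 3 acceptors, the middle one 12 bases and the last one 33 bases downstream of the first. The longest form took 93.9, 97.7, 97 and 99.4% in WT and 82.8, 68.7, 72.1 and 65.4% in MG53-TG, so every MG53-TG sample was below every WT sample. The difference was -24.7 points (limma adjusted p = 0.0717), and over the alternatives the adjusted p ranged from 0.0287 with the logit and 0.5 FPKM added to 0.377 with the replicate block. It was 0.0377 without MG53-TG replicate 1 and 0.206 with absent rows taken as missing. The middle form was listed at 0.168 ± 0.329 FPKM (SD, n = 4) in WT, where 2 samples did not list it, and at 2.35 ± 0.716 FPKM in MG53-TG, while the form from the last acceptor stayed below 0.35 FPKM in all samples. Sh2b1, an adaptor of insulin and leptin receptor signalling, varied at a donor. Its longest form, extended by 53 bases, took 13.2, 22.2, 16.8 and 15.4% in WT and 36.7, 30.9, 36.8 and 34.6% in MG53-TG. The groups did not overlap, the difference was 17.9 points (limma adjusted p = 0.0717), and the summed level of the set was alike, its log2 fold change being -0.09 with a limma adjusted p of 0.591. Without WT replicate 2 the adjusted p was 0.0462, and over the alternatives that kept these forms it ranged from 0.0313 with 0.5 FPKM added to 0.377 with the replicate block. Where any event of a set listed in 6 samples sufficed, the set gained another form, now its longest at 692 bases, listed at 2.57, 2.77, 1.62 and 2.48 FPKM in MG53-TG and in none of the WT samples. The share of that form differed by 16.2 points (limma adjusted p = 0.000287). The form was listed in MG53-TG alone, and every WT sample counted as 0 without spread, so this p-value lends the set no support.

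Further sets also had no overlap between the genotypes, with smaller or like differences. Fdps, the farnesyl diphosphate synthase of the mevalonate pathway, used its upstream acceptor in 2.24, 2.34, 1.76 and 1.78% of WT transcripts and in 1.1, 1.04, 0.887 and 0.731% of MG53-TG transcripts. All MG53-TG values lay below all WT values, at a summed level of 109 FPKM, and the limma adjusted p was 0.0978. Surf1, an assembly factor of cytochrome c oxidase, had a longest-form share of 24.5% ± 1.31 (SD, n = 4) in WT and 34.4% ± 2.13 in MG53-TG, again without overlap and with a limma adjusted p of 0.0978. Its difference of 32 bases is no multiple of 3. Uggt1, the folding sensor for glycoproteins of the endoplasmic reticulum, had 95.6% ± 0.396 in WT and 91% ± 1.36 in MG53-TG, and Fbxo22, a substrate receptor of a ubiquitin ligase, 99.5% ± 0.537 and 93.6% ± 2.44, with limma adjusted p-values of 0.106 and 0.116. Ppp4r3a, a regulatory subunit of protein phosphatase 4, had 32.4% ± 3.21 in WT and 55.6% ± 7.8 in MG53-TG (limma adjusted p = 0.119). Khdc4, an RNA-binding protein with KH domains, had 70.2% ± 7.44 and 45.8% ± 6.91 (limma adjusted p = 0.172). None of these passed the threshold, and without MG53-TG replicate 3 only Ppp4r3a among them did, with an adjusted p of 0.0325, the lowest over its alternatives, the highest being 0.388 with the replicate block.

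Dgat1, the enzyme that makes triglycerides for fat absorption, had 4 sets whose longest forms carried nearly the same FPKM. These forms are read here as parts of the same transcripts. In the set with the 28-base segment the longest form took 69.9, 70.9, 94.8 and 71.2% in WT and 99.84, 99.84, 99.89 and 99.9% in MG53-TG, without overlap. WT sample 3 stood apart from the other WT samples. The limma adjusted p was 0.13, and over the alternatives that kept both forms it ranged from 4.28e-06 without WT replicate 3 to 0.377 with the replicate block. The shorter form was listed at 4.01 ± 2.38 FPKM (SD, n = 4) in WT and 0.077 ± 0.00463 FPKM in MG53-TG, whereas the longest form was at 11.8 ± 2.08 and 59.3 ± 12.8 FPKM. The summed level of the set rose by 1.87 on the log2(FPKM + 1) scale (limma adjusted p = 0.00104). A second Dgat1 acceptor set, with a 70-base segment, also had no overlap, at 98.7% ± 0.365 and 99.4% ± 0.278 (limma adjusted p = 0.416), and the other two had overlapping shares of 90.8% ± 8.84 in WT and 88.3% or 88.4% ± 3.82 in MG53-TG.

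**Figure D4:**
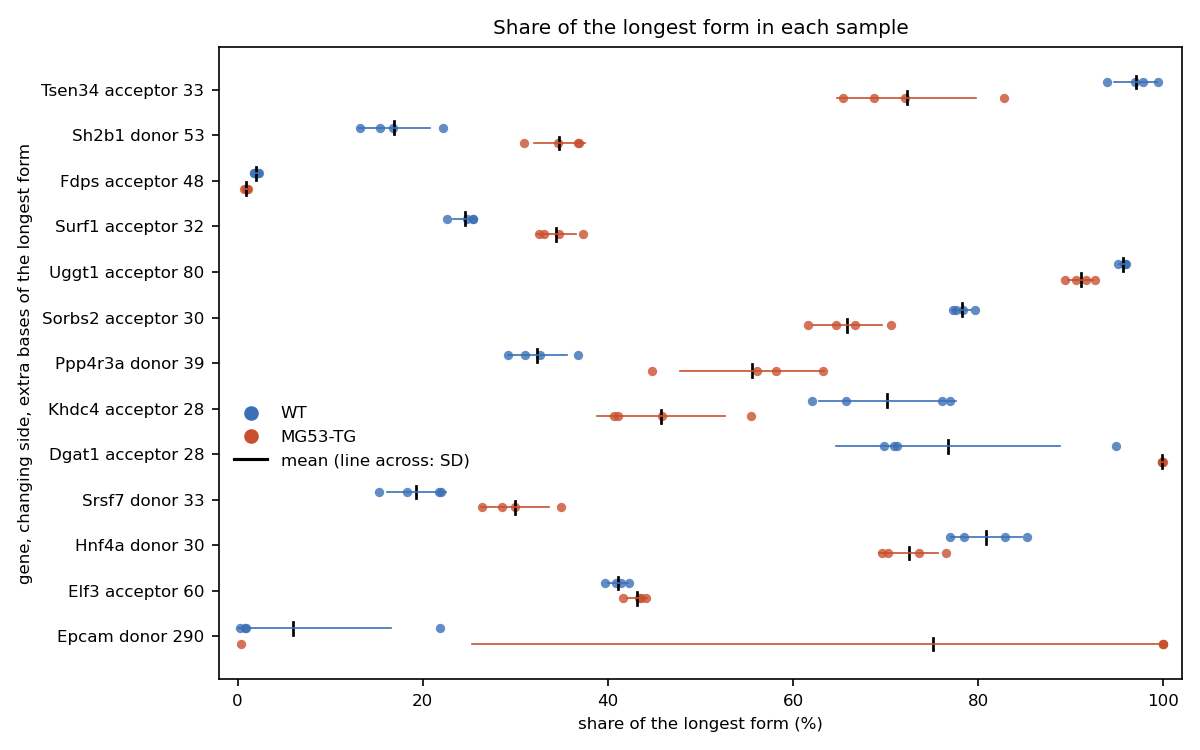
Share of the longest form in percent (horizontal axis) in every sample for 13 sets, labelled by gene, changing side and the bases between longest and shortest form; each point is a sample, blue for WT and red for MG53-TG, the black tick the mean and the coloured line 1 SD to each side, clipped at 0 and 100%. The groups of the first 11 sets do not overlap, Elf3 has overlapping groups close to each other, and Epcam has values near 0 and near 100% within MG53-TG.

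Among sets without overlap, the 10 with the largest differences belonged to 8 genes and came with wide spreads between replicates. Myo18a, an unconventional myosin, had an acceptor set with a longest form not annotated in GENCODE, at 13.3, 0, 23.9 and 0% in WT and 50.7, 77.3, 65.9 and 55.1% in MG53-TG (limma adjusted p = 0.16). Its donor set shares that long exon and had 8.84% ± 10.8 (SD, n = 4) and 44.6% ± 20.3. That long exon spans the short exons of both sets and the bases between them, as a retained intron does. The Myo18a sets are thus not separate results. Phrf1, a RING-finger ubiquitin ligase, used the upstream acceptor of a 45-base segment in 0.00186, 0.002, 0.0265 and 0.0201% in WT and in 38.2, 58.8, 14.7 and 20% in MG53-TG. All WT samples were thus near 0 and all MG53-TG samples above 14%, with a limma adjusted p of 0.116. Nxf1, the export receptor of mRNA, had a donor form extended by 1802 bases at 6.44% ± 7.36 in WT and 42.4% ± 12 in MG53-TG (limma adjusted p = 0.173). Irf3, a transcription factor of the interferon response, had a donor and an acceptor set with the same long exon. Its shares were 61.6% ± 6.72 and 27.1% ± 20.6 on the donor side (limma adjusted p = 0.412). Here too the long exon spans both short exons and the bases between them, as a retained intron does, so the Irf3 sets are not separate results. The remaining sets were in Sorbs2, Qtrt2, Atad2b and Ino80d, with differences of 48.9, 43.2, -31.6 and -27.6 points and limma adjusted p-values from 0.262 to 0.576. Sorbs2, an adaptor of the actin cytoskeleton, had a further set, with a 30-base segment and named after its values were seen, at 79.6, 77.6, 77.3 and 78.4% in WT and 61.7, 70.5, 66.7 and 64.6% in MG53-TG (limma adjusted p = 0.106).

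The most abundant sets used nearly one end only. The ribosomal protein gene Rps18 had a longest-form share above 99.9% in all 8 samples, at 1095 FPKM, and Bsg, the chaperone of lactate transporters, stood at 99.3% ± 0.122 (SD, n = 4) in WT and 99% ± 0.143 in MG53-TG. Dbi, an acyl-CoA binding protein, had its long donor form at 0.275% ± 0.0136 and 0.288% ± 0.185. Pgk1, a glycolytic kinase, had the clearest minor end among them, at 5.28, 5.35, 5.58 and 5.06% in WT and 4.43, 5.34, 3.71 and 3.53% in MG53-TG. MG53-TG sample 2 fell inside the WT range, and the limma adjusted p was 0.475. The spread between replicates was smaller at higher levels: the median SD was 4.78 points in WT and 5.98 points in MG53-TG over 685 sets of 5 to 10 FPKM, and 0.185 and 0.154 points over 100 sets of at least 100 FPKM. The share of sets without overlap was 4.82% in the former and 19% in the latter, while the median size of the difference was 3.12 and 0.0921 points.

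**Figure D5:**
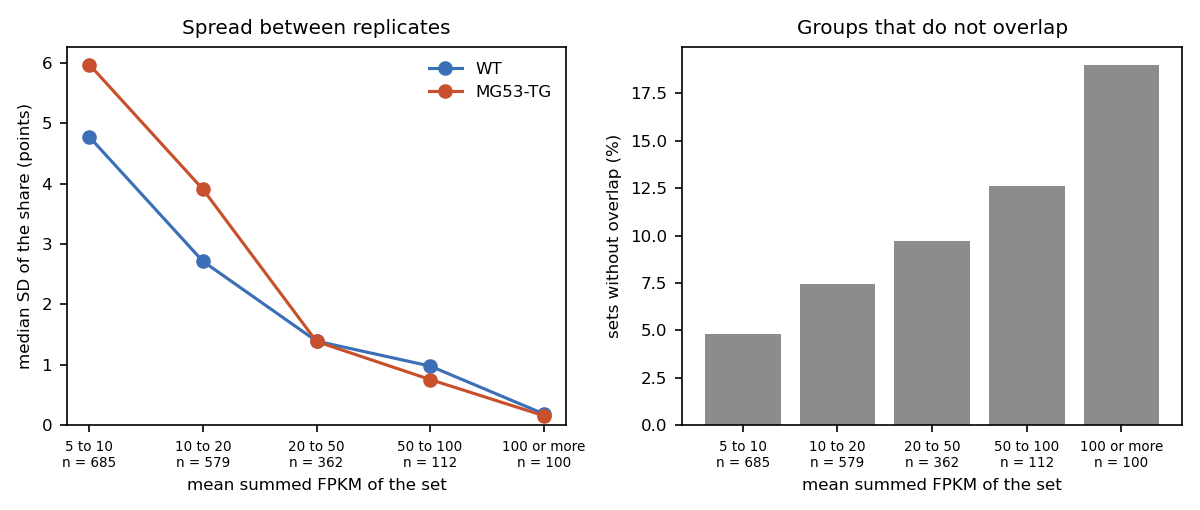
Left, the median SD of the longest-form share between 4 replicates in percentage points (vertical axis) for 5 classes of the mean summed FPKM of a set (horizontal axis), blue for WT and red for MG53-TG. Right, the percentage of sets in each class whose WT and MG53-TG values do not overlap, which is 4.82% in the lowest class and 19% in the highest.

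Of 110 genes listed for the intestinal epithelium, 17 had 21 sets, of which 0 passed, 6 had an unadjusted p of at most 0.05 (28.6%, against 9.63% of all share features) and 4 had no overlap (19%, against 8.9%), with a median difference of -0.04 points against 0.0027 points over all sets. Those without overlap were both Dgat1 sets above, Hnf4a and Myo5b. Hnf4a, a nuclear receptor that maintains enterocyte identity, has a donor pair 30 bases apart that gives the known variants with and without a short insertion in the C-terminal F domain. The long form took 78.4, 76.9, 82.9 and 85.2% in WT and 69.6, 70.2, 76.5 and 73.6% in MG53-TG. The ranges came within a point of each other without overlap, and the difference was -8.38 points (limma adjusted p = 0.349). The long form was at 108 ± 4.61 FPKM (SD, n = 4) in WT and 76.8 ± 2.71 FPKM in MG53-TG, and the short form at 25.7 ± 5.53 and 29.4 ± 5.34 FPKM. Myo5b, the motor of apical recycling, had its long form at 0.0194% and 0.031% (limma adjusted p = 0.961). It counts among the 4 without overlap at shares near the floor.

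Other epithelial sets overlapped between the genotypes. Elf3, an epithelial ETS factor, had 41.1% ± 1.11 (SD, n = 4) in WT and 43.2% ± 1.08 in MG53-TG, at a summed level that fell by 1.05 on the log2(FPKM + 1) scale (limma adjusted p = 0.00138). F11r, the junctional adhesion molecule JAM-A, had 11.7% ± 1.66 and 16.1% ± 3.29, with a longest form that GENCODE does not hold. Mgam, the brush-border maltase-glucoamylase, had 44.4% ± 28.8 and 14.5% ± 6.73, WT sample 3 at 86.5% being far above the others. Ftl1 and Fth1, the ferritin chains, stood at or below 2.33% and at or above 99.7% in every sample. Slc11a2, the apical iron transporter, had 99.75% ± 0.0885 in WT and 99.81% ± 0.0559 in MG53-TG. Smoc2, a gene of intestinal stem cells, had 2.26% ± 2.65 and 3.13% ± 3.76. No form of the Muc13 set, a transmembrane mucin, was listed in MG53-TG sample 1, and in the others the longest form took 52.3% ± 11.8 (n = 4, WT) and 60.8% ± 19.4 (n = 3, MG53-TG).

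Epcam, the epithelial adhesion molecule, had opposite forms in different samples. The long donor form, 290 bases longer, took 0.316, 0.803, 0.864 and 21.9% in WT and 99.99, 0.384, 100 and 99.96% in MG53-TG. MG53-TG sample 2 thus lay with the WT samples and the other 3 at the opposite end. The short form was listed at 397, 425, 431 and 383 FPKM in WT. Of the MG53-TG samples, sample 2 listed it at 408 FPKM, samples 1 and 4 at 0.0385 and 0.0898 FPKM, and sample 3 not at all. The long form reached 289 and 221 FPKM in MG53-TG samples 1 and 4 but 0.228 FPKM in sample 3, where the gene level taken from its start and end events was 507 FPKM. The limma adjusted p was 0.439, and over the alternatives it ranged from 0.0138 without MG53-TG replicate 2 to 0.619. Such swings of over 80 points between samples of 1 genotype occurred in 34 sets, 14 in WT and 22 in MG53-TG. Of these sets 0 were without overlap, against 8.9% of all share features. The selection nearly fixes this count, since so wide a range leaves the other genotype little room outside it. Ndufv1, a subunit of respiratory complex I, had 81.1% in WT sample 1 and at most 0.132% in the other 7 samples. Srsf1, an SR protein, ranged from 33.8 to 99.6% in WT and from 17.7 to 97.9% in MG53-TG.

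The genes that read splice sites were themselves represented. Of 93 such genes listed (U2 and U1 snRNP components, SR proteins and their kinases, hnRNPs and tissue factors), 34 had 46 sets, of which 0 passed and 8 had no overlap (17.4%, against 8.9% of all share features), 7 higher and 1 lower in MG53-TG, where 5.02% and 3.88% of all features were. The median difference was 1.18 points, against 0.0027 points over all sets. No test of the list was made. All 8 are named here after their values were seen. Srsf7, an SR protein, had a donor set of 3 forms, whose longest took 21.8, 18.3, 21.9 and 15.3% in WT and 26.4, 29.9, 35 and 28.5% in MG53-TG (limma adjusted p = 0.197). Its middle form, 9 bases shorter, was at 68.6 ± 12.1 FPKM (SD, n = 4) in WT and 25.9 ± 8.86 FPKM in MG53-TG, and its longest at 16.7 ± 2.39 and 11.2 ± 3.09 FPKM. Pcbp2, a poly(C)-binding protein, had an acceptor pair 12 bases apart at 12.3, 14, 26.9 and 25.3% in WT and 31.7, 27.7, 33.3 and 45.1% in MG53-TG, and Cwc22, which loads the exon junction complex, a donor pair 18 bases apart at 58.2% ± 6.01 and 73.8% ± 10.4. Their limma adjusted p-values were 0.412 and 0.477. Sf3a2, a subunit of U2 snRNP, had 1.93% ± 0.308 and 4.54% ± 2.26, and Clk2, a kinase of SR proteins, 1.29% ± 0.231 and 5.61% ± 4.27. Sf1, the branch point binding protein, had 0.218% ± 0.0517 and 0.527% ± 0.155. Prpf18 stood at 0.00576 to 0.013% in WT and at 0.0167, 0.0157, 6.09 and 0.0148% in MG53-TG. Clk1, the lower set, had 0.684, 0.744, 7.82 and 0.685% in WT and 0.482 to 0.544% in MG53-TG. In both of these sets 1 sample set the higher mean and the other values were near the floor, so they add little to the count of 8.

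At the level of whole genes, 37 of the 87 splice site genes tested differed between the genotypes (limma on log2(FPKM + 1), Benjamini-Hochberg over 11093 genes), where 44.6% of all genes did. Lower levels in MG53-TG made up 35 of these, against 28.8% of all genes, and higher levels 2, against 15.8%. The median log2 fold change over all genes was -0.16, and with median-of-ratios scaling, which brought it to -0.01, 24 were lower and 5 higher, against 20.3% and 20.5% of all genes in that fit. Srsf7 fell by 1.1 ± 0.22 (SE) on the log2 scale, from 91.1 to 43.3 FPKM (limma adjusted p = 0.00446). The hnRNP gene Hnrnpd fell by 1.79 ± 0.39 (limma adjusted p = 0.00651), and Esrp1, an epithelial splicing regulator, by 0.97 ± 0.21 (limma adjusted p = 0.00609). The 2 that rose were Clk1, by 0.67 ± 0.1, and Clk4, by 0.34 ± 0.12, both kinases that phosphorylate SR proteins, with limma adjusted p-values of 0.000874 and 0.0446. By class, 10 of 24 acceptor-side genes, 6 of 16 donor-side genes, 6 of 20 SR proteins and SR kinases and 13 of 27 hnRNPs and tissue factors were lower.

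The remaining lists held few sets and 0 calls. Of 22 sets of nuclear and RNA-binding proteins 3 had no overlap (13.6%, against 8.9% of all share features), all higher in MG53-TG, where 5.02% of all features were, with a median difference of 2 points. Among them were Srsf7 and Rbm39, a splicing factor, at 5.56% ± 4.1 (SD, n = 4) in WT and 13% ± 2.23 in MG53-TG. Of 10 sets of cytoskeleton and adhesion genes 1 had no overlap, against 8.9% of all features, in Ctnnd1, the p120 catenin, at 100, 98.3, 84.5 and 79% in WT and 74.1, 69.4, 75.2 and 75.9% in MG53-TG (limma adjusted p = 0.458). Of 8 sets of vesicle traffic genes and 5 of mitochondrial and metabolic genes, 0 were without overlap.

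The summed levels of the sets, unlike their shares, differed often. Limma on log2(summed FPKM + 1) gave 575 sets with an adjusted p of at most 0.05 (31.3%), against 32.3% of all share features. Of these sets 207 were higher and 368 lower in MG53-TG, where 10.6% of all features were higher and 21.7% lower. After median-of-ratios scaling 270 sets were higher and 234 lower, and the shares of all features under that scaling are not given here. A set had to reach 5 FPKM on average to be kept, so these counts describe the kept sets. Of the 144 sets without overlap in share, 83 also had a level that differed. The FPKM is read here as that of whole transcripts, and sets of a gene are not independent. In 156 sets a form had the same FPKM, within 1%, in all samples as a form of another set of the gene. In 139 sets the exons belonged to a GENCODE gene other than the one the files name, and in 7 to none.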

How the data were processed

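The authors trimmed, aligned and quantified the reads, naming in the submitters' processing notes cutadapt 1.9.1, HISAT2 2.0.1, HTSeq 0.6.1 and DESeq2 on mm10. The tool that made the exon event tables is not given in the sources used here. The deposited values are FPKM per splicing event, listed separately for each of 8 samples, so the read depth is unknown and no interval from counts is given. Repeated identical rows of some other event types (16032) were dropped.

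The members and gene lists were chosen with earlier results of these data known. Exons were grouped by gene and shared boundary, and the share of the longest form was computed per sample. An event had to be listed in at least 6 of 8 samples and a set to average 5 FPKM. Shares were tested with limma 3.58.1 (R 4.3.3) on the arcsine of the square root, with a variance trend on log2 mean summed FPKM and Benjamini-Hochberg adjustment over 6782 share features, threshold 0.05, all 8 samples and no covariate. Single values were also tested with the two-sided exact permutation test. Levels were tested with limma on log2(FPKM + 1), on genes that averaged 0.5 FPKM or more. The largest on average of 3 candidates (start events summed, end events summed, top event) stood for the gene. Exons were matched to GENCODE vM21, in which 1447 of the 1449 gene identifiers were found, and segments were read from its transcripts. Tables were built with Python 3.11.15, pandas 2.3.3 and numpy 2.4.6, and figures with matplotlib 3.10.9.

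Sets were named by these rules: all sets past the threshold, at most 15, of which there were 0; the 10 largest differences without overlap; the 5 highest levels; the 3 sets on either side of the FPKM minimum; and the 10 most abundant sets of intestinal epithelium genes. Sets of 2 genes that these choices would name are not reported here. A further 19 sets, and the sets of the gene lists without overlap, were named after their values were seen. Among the 19, a Decr2 donor set without overlap is given only here. Its longest form took 93.2% ± 4.34 (SD, n = 4) in WT and 68.4% ± 8.65 in MG53-TG (limma adjusted p = 0.183). On simulated shares with 200 of 6775 features changed by 10, 20 or 40 points, 44.5, 51.5 and 70% were recovered with 15, 10 and 12 unchanged features called, and 0 were called where nothing was changed. The 200 were sets of this type, each moved toward the middle of the range, with normal noise. Mean shares were below 5% in 447 kept sets and above 95% in 489, where such a move is large on the tested scale. The recovery therefore does not give the power for shares in the middle of the range. Alternatives to the scale, the filters, absent rows, variance prior, sample weights, replicate block and each left-out sample were run.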

Additional observations from a re-analysis of the deposited data

Results flagged for a closer look

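In 7 of 91 groups of 4 samples among the named sets, 1 sample lay far from the other 3, its gap to the nearest exceeding 0.829 of the group's range. Chance flags about 1 in 20 such groups, or 4.55 of 91. Each is given as a value, and a cause was not tested. In the Dgat1 set with the 28-base segment WT sample 3 had 94.8%, where the other WT samples had 69.9 to 71.2%. In the Epcam set WT sample 4 had 21.9% and MG53-TG sample 2 had 0.384%. In the Abhd14a set WT sample 3 had 5.61%, and in the Ftl1 set WT sample 2 had 2.33%. In the Slc11a2 set WT sample 4 had 99.88%. In the Rps18 set WT sample 2 had 99.99%, less than 0.1 points from the others.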

How the results depend on the processing

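The count of 0 sets with a different share held with a minimum of 10 FPKM, sets listed in all samples, sets of 2 forms, no variance trend, robust priors, sample weights, annotated sets only and mean shares of 5 to 95%. It was 1 with no FPKM minimum and 1 with a minimum of 2 FPKM, 3 with absent rows as missing and 7 where any event of a set listed in 6 samples sufficed. Sh2b1 was among the 3 with its forms unchanged (limma adjusted p = 0.047), and among the 7 through the share of a form it gained there. Tsen34 was among the 7 with its forms unchanged (limma adjusted p = 0.045). Adding 0.5 FPKM to each form gave 27, and the logit with 0.5 FPKM added 40. An added constant moves a share with the level of its set. A level that differed was found for 21 of the 27 and 36 of the 40, against 31.3% of all kept sets. The part of the level in these calls was not tested, and the share of all features called with 0.5 FPKM added is not given here. Tsen34, Sh2b1, Uggt1, Ppp4r3a, Apob, the Myo18a acceptor set and both Dgat1 sets without overlap passed under each of these, Surf1 and Sorbs2 (30-base segment) with 0.5 FPKM added alone and Phrf1 with the logit alone. Leaving out 1 sample gave 0 to 5, the 5 without MG53-TG replicate 1 being Tango2, Wdr3, Tsen34, Rnf126 and Abhd14b. The count at an unadjusted p of at most 0.05 was 366 (187 higher, 179 lower; 19.9% against 21.2% of other features) with the logit, 338 (171 higher, 167 lower; 18.4% against 19.3%) with 0.5 FPKM added and 79 (46 higher, 33 lower; 8.78% against 11.5%) for mean shares of 5 to 95%, an alternative chosen after seeing the data.

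Leaving out 1 sample gave 135 to 177 sets at an unadjusted p of at most 0.05 (75 to 97 higher, 60 to 80 lower). Sets with a different level numbered 402 to 619 (166 to 213 higher, 235 to 413 lower, the 235 without MG53-TG replicate 3) and splice site genes 29 to 44 (1 to 2 higher, 28 to 43 lower). With median-of-ratios scaling 234 sets were lower in level and 5 splice site genes higher.

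The replicate numbers did not pair the samples: deviations of same-numbered samples correlated at -0.026, -0.023, 0.034 and -0.047. With the replicate block 0 sets differed in share, and 134 (7.29%, against 9.02% of other features) had an unadjusted p of at most 0.05. It moved no count of calls in share, level or splice site genes by over 1.5 times.

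Among named sets, the sign reversed in points and on the tested scale for Fth1 (-0.0399 points, 0.0185 with 0.5 FPKM added, with or without the logit) and Muc13 (8.49 points, -2.24 with absent rows as missing). With the logit it reversed for Cdhr5 on the tested scale and not in points (-2.36 points, -1.07 with the logit). With 0.5 FPKM added it reversed in points and not on the tested scale for Dbi (0.0136 to -0.0061) and the overlapping Dgat1 sets (-2.46 to 0.0399 at the acceptor, -2.45 to 0.0545 at the donor). Over the samples left out the differences ranged from -0.600 to 1.91 points for Smoc2, -13.9 to 8.01 for Dop1b, -2.31 to 0.0538 for Tjp1, -3.98 to 0.772 for Cgn, -0.0337 to 0.103 for Dbi, -4.89 to -0.404 for Cdhr5, -6.72 to 0.00496 for the overlapping Dgat1 donor set and -2.24 to 16.6 for Muc13. Unknown depth limits what the lowest shares can show.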
